A study of Mus musculus with 9 samples.

Results

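Mitochondrial ribosomal protein genes encode the proteins of the mitoribosome, the ribosome inside mitochondria. The genes lie in the nucleus, and their products are made in the cytosol, imported and assembled with ribosomal RNA that is transcribed from mitochondrial DNA. The finished particle has a large subunit, which forms peptide bonds, and a small subunit, which reads the messenger RNA, and it makes the membrane core subunits of the oxidative phosphorylation complexes. The genes were taken as every symbol of the deposited count table that starts with Mrpl or Mrps followed by a digit, which gave 77 of 12125 genes. The mm10 annotation holds 78 coding genes with such symbols, and the 1 not matched, Mrpl58, stands in the table under its older symbol Ict1 and is described with the related genes. By the structure of the mammalian mitoribosome 50 of the 77 encode large subunit proteins and 26 small subunit proteins. The large subunit set includes Mrps18a and Mrps30, whose products sit there despite their names. The remaining gene, Mrps36, encodes a protein that is now known as a component of the 2-oxoglutarate dehydrogenase complex and not of the ribosome.

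RNA was measured by sequencing in 9 libraries of TC2R (TRAMPC2-Ras), a cell line of mouse prostate adenocarcinoma on a C57/BL6 background. TC2R was derived from TRAMP-C2 cells by lentiviral transduction that included activated H-ras, so the cells of every group hold it. The IL27_pepL group, with 3 libraries, received a plasmid for IL-27 that ends in the peptide pepL, which the study directs at the IL-6 receptor alpha chain. The IL27_scr group, with 3 libraries, received a plasmid for IL-27 that ends in a control peptide, and the plasmid control group, with 3 libraries, received the plasmid without IL-27. All wells got 1.5 µg of DNA with 2 µL of Lipofectamine for 6 h and were harvested at 24 h. IL-27 is a cytokine of a pair of chains, Il27 and Ebi3, that signals through gp130.

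Total counts per library were 30013229 to 34164353 in IL27_pepL, 30087806 to 35959983 in IL27_scr and 27609884 to 35078027 in plasmid control. Il27 had 237 to 252 reads per library in IL27_pepL, 179 to 244 in IL27_scr and 0 to 1 in plasmid control, in accord with the labels. Of 7 markers of prostate epithelium only 2 (Krt8 and Cdh1) were in the table, at a summed level of 2.32 to 3.11 CPM (counts scaled to a common library size) over all libraries. All 4 mesenchymal markers were in it, at a summed 3228 to 3639 CPM in IL27_pepL, 3083 to 3141 in IL27_scr and 3008 to 3129 in plasmid control; the part of this difference in the results below was not tested. None of 5 leukocyte markers was listed. Of 3 endothelial markers 2 (Cdh5 and Kdr) were in the table, at a summed 4.37 to 7.63 CPM over all libraries. The labels do not say whether replicates were separate cultures, so p-values measure the spread between these libraries, which may be technical. In bulk RNA, fewer cells with a transcript and less of it per cell cannot be told apart.

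Before the values, stretches before the start sites of 4 members are shown, since the genes of this family often have promoters without a TATA box that bind NRF1, ETS factors such as GABP, and YY1. The stretches are RefSeq sequence of build GRCm38.p6, 5′ to 3′ on the gene's strand, and were limited to bases before the start that no annotated exon covers. They end 160 bases before the RefSeq start in Mrpl11, where another annotated transcript begins directly after the stretch, 25 bases before it in Mrpl12, 1 base before it in Mrpl52 and 4 bases before it in Mrpl22, so no start site is in the printed letters. Capitals mark letters of a searched motif. Mrpl11 is shown because it was the one member that passed the test below. The others were picked among the named members by the smallest p in IL27_pepL against plasmid control. Mrpl12 was picked for a stretch with the NRF1 letters, Mrpl52 for the ETS letters and Mrpl22 for 2 of the motifs. The marked letters were thus a condition of the choice in these genes and not a separate find.
Mrpl11, chr19:4962056-4962146, plus strand: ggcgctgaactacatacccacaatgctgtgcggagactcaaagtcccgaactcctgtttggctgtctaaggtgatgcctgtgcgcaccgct
Mrpl12, chr11:120484463-120484612, plus strand: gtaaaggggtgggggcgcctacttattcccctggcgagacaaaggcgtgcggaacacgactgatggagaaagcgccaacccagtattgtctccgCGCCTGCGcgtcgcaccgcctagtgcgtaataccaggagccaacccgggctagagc
Mrpl52, chr14:54426759-54426908, plus strand: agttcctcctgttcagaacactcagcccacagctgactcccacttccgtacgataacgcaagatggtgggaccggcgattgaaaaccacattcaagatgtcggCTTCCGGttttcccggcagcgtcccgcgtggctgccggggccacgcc
Mrpl22, chr11:58171511-58171660, plus strand: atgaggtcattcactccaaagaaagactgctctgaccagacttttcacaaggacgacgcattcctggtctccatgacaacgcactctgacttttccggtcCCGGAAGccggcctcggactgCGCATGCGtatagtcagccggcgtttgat

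The motifs searched on both strands were CGCANGCG for NRF1, CCGGAAG for ETS factors and ANATGGCG for YY1, in windows of 250 bases before to 50 bases after each RefSeq start. RefSeq windows were matched for 68 of the 77 genes. The NRF1 letters stood in 20 of the 68 genes (29.4%), against 20.1% of the 9262 matched genes of the table. The ETS letters stood in 25 (36.8%), against 20.7%, and the YY1 letters in 10 (14.7%), against 8.44%. At least 1 of the 3 was found in 44 of the 68 genes (64.7%), against 40.9% of matched genes in the table. Of all 32851 single windows 18.0% held one, a share by window that cannot be set against these shares by gene. In Mrpl12 the NRF1 letters began at -80 from the RefSeq start, and in Mrpl52 the ETS letters began at -47, both read on the other strand. Each of these windows held the same motif again after the start, at 42 in Mrpl12 and at 2 in Mrpl52. Mrpl22 held the ETS letters at -53 and the NRF1 letters at -32, while the Mrpl11 window held none of the 3. That window reached only 91 bases before the start of the other annotated transcript of Mrpl11, so bases farther before it were not searched. These matches describe letters and not bound sites.

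All 77 genes were well covered, with between 137 reads (the lowest library of Mrpl55) and 7563 reads (the highest library of Mrpl9). Levels per transcript length are given as RPKM, the CPM divided by the length in kilobases of the principal annotated transcript. In plasmid control the highest level was that of Mrpl9, a large subunit protein with a bacterial counterpart, which averaged 125 ± 14.5 RPKM in IL27_pepL, 124 ± 5.65 in IL27_scr and 119.8 ± 2.66 in plasmid control (SD, n = 3 each). Mrpl42, a large subunit protein that bacteria lack, averaged 118 ± 7.72 RPKM in IL27_pepL, 103 ± 6.72 in IL27_scr and 103 ± 9.67 in plasmid control. Mrpl12 and Mrps6, a small subunit protein, followed in plasmid control at 103 ± 5.27 and 98.3 ± 5.14 RPKM. Mrpl42, Mrpl12 and Mrps6 did not differ among themselves beyond their spread.
The lowest levels in plasmid control were those of Mrpl48, of the central protuberance, at 4.72 ± 0.14 RPKM and of Mrps25, a small subunit protein without a bacterial counterpart, at 5.32 ± 0.32. Next came Mrpl55, the counterpart of bacterial L31, at 5.64 ± 0.29, and Mrps33, a protein of the small subunit head, at 6.43 ± 0.46. The intervals of 1 SD around the means of Mrps25 and Mrpl55 overlapped. The place of a gene in this order depends on its annotated length: with the median length of its coding transcripts Mrpl17, of the exit tunnel rim, moved from rank 73 to rank 12, and Mrpl48 from rank 77 to rank 58. Across the large subunit genes the median level was 41.4 RPKM in IL27_pepL, 36.6 in IL27_scr and 35.7 in plasmid control. Across the small subunit genes it was 37.9 RPKM in IL27_pepL, 30.5 in IL27_scr and 30.7 in plasmid control, so the genes of both subunits had medians of the same order.

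**Figure D1:**
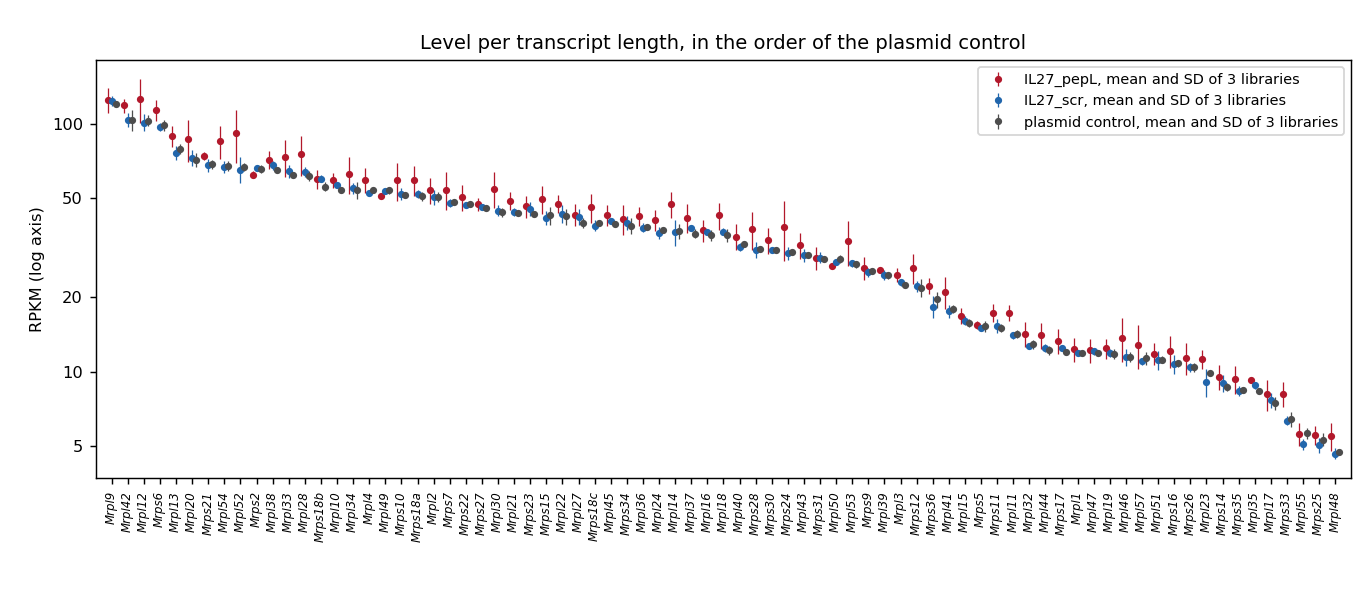
Level of each of the 77 genes in RPKM on a log axis, ordered by the plasmid control mean; points are means and bars SDs of 3 libraries for IL27_pepL, IL27_scr and plasmid control. Mrpl9 stands at the top at 119.8 RPKM and Mrpl48 at the bottom at 4.72 RPKM in plasmid control, and the bars of IL27_pepL are the longest for many genes.

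In IL27_pepL against plasmid control most of the genes lay slightly higher. The median log2 fold change of the 77 genes was 0.1432, against 0.0023 for all 12125 genes, and 73 of the 77 were above 0, against 50.6% of all genes. Mrpl11, a protein at the base of the stalk that receives translation factors, was the 1 member that rose at an adjusted p under 0.05 (edgeR's quasi-likelihood test, Benjamini-Hochberg adjusted over all genes), and 0 fell. Over all genes 0.429% were called higher and 1.2% lower. At an unadjusted p under 0.05, 33 of the 77 were higher and 0 lower, against 11.2% of all genes higher and 11.8% lower. The libraries of IL27_pepL lay wholly above those of plasmid control for 10 of the 77 genes, which is near the 10.7% found among all genes, and wholly below for 1, Mrpl50, against 13.4%. The calls depend on IL27_pepL replicate 1: with that library left out 48 of the 77 genes passed, all higher. In all 2084 genes then passed, against 197 with every library. Without IL27_pepL replicate 3 the members' median was 0.08 with 0 passing (138 genes in all). When each library's length and GC trend was offset the members' median was 0.06 with 56 of the 77 above 0. DESeq2's Wald test called 6 members (774 genes in all). With only the compared groups in the edgeR fit 0 members passed (48 genes in all).

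Mrpl11 (chromosome 19, 4962147 to 4966999 on the plus strand, mm10) had 48.3, 54.2 and 55.4 CPM in IL27_pepL replicates 1, 2 and 3. It had 41.5, 42.2 and 44.1 CPM in IL27_scr and 42.2, 42.6 and 45.0 CPM in plasmid control. Every IL27_pepL library lay above all 6 others, and the IL27_scr and plasmid control libraries overlapped. The log2 fold change was 0.28 ± 0.06 (SE) against plasmid control, with an adjusted p of 0.0343 by edgeR's quasi-likelihood test, and 0.31 ± 0.06 against IL27_scr, with an adjusted p of 0.0191. IL27_scr against plasmid control gave -0.02 ± 0.06. The call against plasmid control was lost when any 1 of the libraries other than IL27_pepL replicate 1 was left out, with edgeR adjusted p from 0.0528 to 0.167 and fold changes between 0.25 and 0.32 on the log2 scale. Without IL27_pepL replicate 1 it was 0.35, with an edgeR adjusted p of 0.00220. With only the compared groups in the fit the edgeR adjusted p was 0.104 against plasmid control and 0.0537 against IL27_scr.

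The stalk and its base hold Mrpl10, which anchors the stalk, Mrpl12, the flexible stalk protein itself, Mrpl11, and the mitochondria-specific Mrpl53 and Mrpl54. All 5 were higher at an unadjusted p under 0.05 in IL27_pepL against plasmid control, beside 33 of the 77 members and 11.2% of all genes. Their median was 0.29 on the log2 scale, and 0.11 with the length and GC offset. Of the 5, 1 passed the adjusted test. Mrpl54 had 42.2, 55.6 and 56.0 CPM in IL27_pepL, 38.2, 42.5 and 40.3 in IL27_scr, and 42.7, 38.8 and 41.0 in plasmid control. Replicates 2 and 3 of IL27_pepL stood apart from all other libraries, while replicate 1 lay inside their range. Its log2 fold change was 0.33 ± 0.09, with an adjusted p of 0.0857 by edgeR. Mrpl12 had 129.8, 173 and 195 CPM in IL27_pepL, 122, 143 and 134 in IL27_scr, and 137, 128 and 141 in plasmid control, so that the groups overlapped through IL27_pepL replicate 1, and its log2 fold change was 0.29 ± 0.11. The values of the remaining stalk genes were 0.30 ± 0.11 for Mrpl53 and 0.13 ± 0.05 for Mrpl10.

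Other large subunit genes showed the same order of sizes. Mrpl14, a protein of the face that meets the small subunit, had 26.2, 32.2 and 33.1 CPM in IL27_pepL, 20.3, 25.9 and 24.5 in IL27_scr, and 24.8, 21.9 and 24.6 in plasmid control. All 3 IL27_pepL libraries were above the 6 others, the lowest by a narrow margin, and the log2 fold change was 0.36 ± 0.10 with an adjusted p of 0.0860 by edgeR. Mrpl18, which sits in the central protuberance at the top of the subunit, had 47.3, 49.4 and 59.4 CPM in IL27_pepL, 45.4, 42.9 and 45.6 in IL27_scr, and 42.8, 40.8 and 45.9 in plasmid control. The IL27_pepL libraries again lay above the rest, with replicate 3 farthest out, and the log2 fold change was 0.27 ± 0.08 with an adjusted p of 0.0891 by edgeR. The largest fold change of all members was that of Mrpl52, a large subunit protein without a bacterial counterpart, which had 29.8, 36.7 and 48.3 CPM in IL27_pepL, 23.8, 30.4 and 27.6 in IL27_scr, and 26.9, 28.2 and 28.8 in plasmid control. Its IL27_pepL libraries were far apart and replicate 1 overlapped IL27_scr, and the log2 fold change was 0.45 ± 0.14 with an adjusted p of 0.0970 by edgeR.

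Of the small subunit genes 0 of 26 passed the test, and their median was 0.14 on the log2 scale. Mrps33 had 8.52, 8.29 and 10.2 CPM in IL27_pepL, 7.14, 7.23 and 6.69 in IL27_scr, and 6.59, 7.16 and 7.62 in plasmid control, so the IL27_pepL libraries did not overlap the others. Its log2 fold change was 0.34 ± 0.10, with an adjusted p of 0.0928 by edgeR. Mrps24, a head protein at the entry of the messenger RNA channel, had 27.8, 38.1 and 48.6 CPM in IL27_pepL, 28.3, 31.8 and 29.5 in IL27_scr, and 30.9, 29.4 and 30.0 in plasmid control. Replicate 1 of IL27_pepL was the lowest of all 9 libraries and replicate 3 the highest, and the log2 fold change of 0.34 ± 0.14 had an adjusted p of 0.178 by edgeR. Its annotated exons overlap Urgcp on the same strand, so counts of the pair may be shared. Mrps6 had 87.6, 94.9 and 106 CPM in IL27_pepL, 82.4, 79.2 and 85.1 in IL27_scr, and 85.1, 78.2 and 86.1 in plasmid control. IL27_pepL did not overlap the rest, and the log2 fold change was 0.21 ± 0.07. It overlaps Slc5a3 on the same strand.

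**Figure D2:**
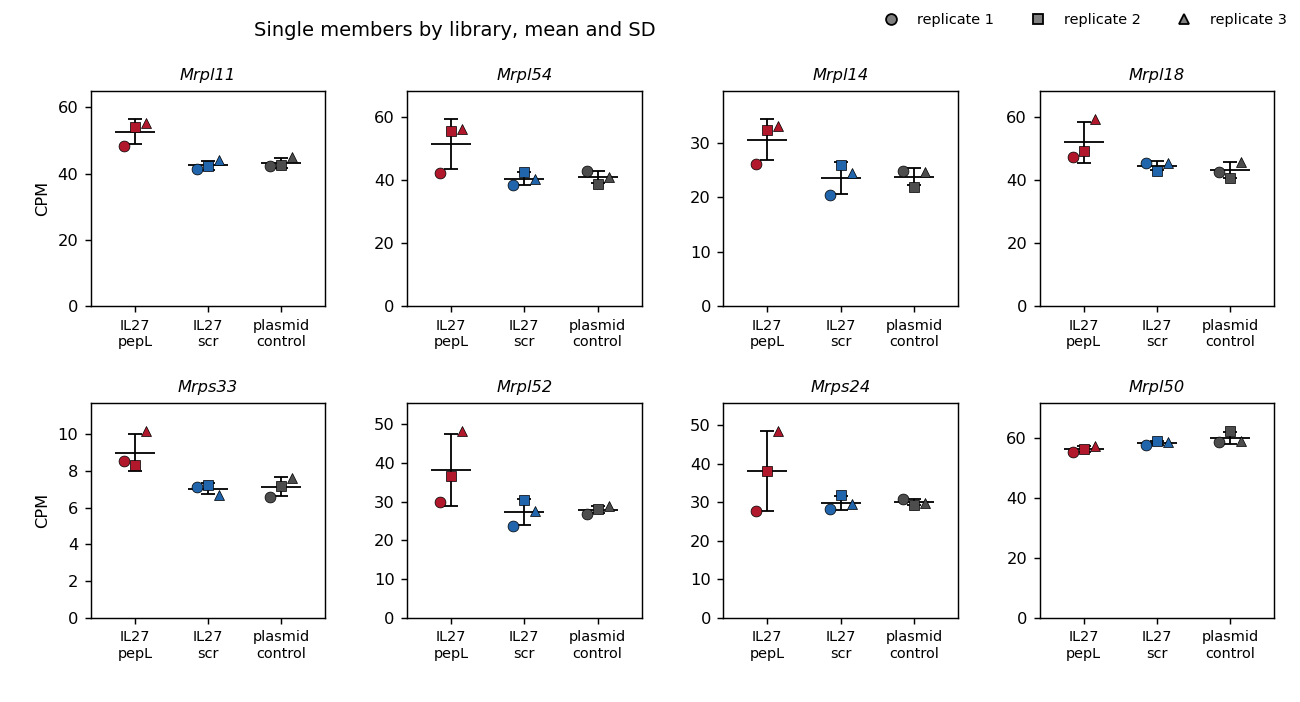
CPM of 8 genes in each library, with symbols for replicates 1, 2 and 3, the group mean as a bar and the SD as whiskers; each axis starts at 0. Mrpl11 is higher in all 3 IL27_pepL libraries (48.3 to 55.4 CPM) than in any other (41.5 to 45.0 CPM), whereas Mrpl52 and Mrps24 spread widely within IL27_pepL and Mrpl50 differs little between groups (55.4 to 62.4 CPM).

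A few genes lay at or below their plasmid control level. Mrpl50, a large subunit protein without a bacterial counterpart, had 55.4, 56.2 and 57.5 CPM in IL27_pepL, 57.6, 58.9 and 58.7 in IL27_scr, and 58.7, 62.4 and 58.9 in plasmid control. The IL27_pepL libraries were the lowest 3 of the 9, by at most a few CPM, and the log2 fold change of -0.09 ± 0.05 had an adjusted p of 0.269 by edgeR. Mrpl49, likewise specific to mitochondria, gave -0.08 ± 0.04, Mrps2, a small subunit protein with a bacterial counterpart, -0.07 ± 0.05, and Mrpl55 -0.01 ± 0.11. Mrpl50 and Mrpl49 were also the members with the smallest coefficients of variation within groups, 2.21% and 2.29%, followed by Mrpl35 at 2.75%. The largest were those of Mrpl52 at 13.4%, Mrps24 at 11.9% and Mrpl20, an early assembling protein of the large subunit core, at 11.1%.

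By role, the median log2 fold changes lay between 0.13 and 0.15 for every list but the stalk (0.29) and the Mrps18 paralogs (0.22); the differences between lists were not tested. In IL27_pepL against plasmid control 47 of the 50 large subunit genes were above 0, at a median of 0.15 on the log2 scale, and 25 of the 26 small subunit genes, at a median of 0.14. The 7 genes of the central protuberance had a median of 0.13, the 6 of the polypeptide exit tunnel 0.13, the 5 early binding core genes 0.14, the 7 of the small subunit head 0.14 and the 4 of messenger RNA entry and decoding 0.14. The 47 genes with a bacterial counterpart had a median of 0.15 and the 29 without one 0.13. Of these lists all but the stalk, the large subunit and the bacterial counterpart list, which share Mrpl11, had 0 genes past the adjusted test. The 3 paralogs Mrps18a, Mrps18b and Mrps18c, of which Mrps18a sits in the large subunit and the others in the small one, had log2 fold changes of 0.22, 0.10 and 0.22, none past the test. With the offset for length and GC content the medians were 0.11 for the stalk, 0.09 for the large subunit, 0.06 for the small subunit and -0.02 for the central protuberance, and Mrps18b stood at -0.04, so the stalk was then near the large subunit and the last 2 changed sign.

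The comparison of IL27_pepL with IL27_scr shares the IL27_pepL libraries with the one above. The median log2 fold change of the members was 0.1498, against 0.0036 for all genes, and 72 of the 77 were above 0, against 51.1% of all genes. Mrpl11 was again the 1 gene called higher and 0 were called lower, against 1.09% and 1.44% of all genes. At an unadjusted p under 0.05, 30 were higher, against 11.9% of all genes, and 0 lower. The groups did not overlap in 10 genes with IL27_pepL above, against 11.7% of all genes, and in 2, Mrpl49 and Mrpl50, with IL27_pepL below, against 14.3%. The IL-27 chain Ebi3 had 314 to 419 reads in IL27_pepL and 266 to 269 in IL27_scr, with the most in IL27_pepL replicate 3; its part in these values was not tested. With IL27_pepL replicate 1 left out 42 of the 77 genes passed (1782 genes in all, against 306 with every library), and with it kept the call of Mrpl11 was lost without any 1 of the IL27_scr libraries or IL27_pepL replicate 2, with edgeR adjusted p from 0.0566 to 0.099. Mrps36 had 14.5, 15.4 and 16.9 CPM in IL27_pepL, 11.6, 12.7 and 14.1 in IL27_scr, and 12.9, 13.3 and 14.9 in plasmid control. Its IL27_pepL libraries were above all of IL27_scr and overlapped plasmid control, and the log2 fold change was 0.28 ± 0.09 against IL27_scr, with an adjusted p of 0.101 by edgeR, and 0.19 ± 0.09 against plasmid control.

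In IL27_scr against plasmid control no member passed the test and none had an unadjusted p under 0.05. That count was 0 with edgeR, DESeq2 and limma-voom, beside 0.0165% of all genes called higher and 0.00825% called lower with edgeR, and 0.891% higher and 1.68% lower at an unadjusted p under 0.05. The median log2 fold change of the 77 genes was -0.0017, against -0.0026 for all genes, and 36 were above 0, against 48.4% of all genes. The 2 groups did not overlap for 3 genes with IL27_scr above (Mrpl10, Mrpl45 and Mrps18b), against 4.75% of all genes, and for 3 with it below (Mrpl4, Mrpl23 and Mrpl55), against 5.25%. Mrpl45 and Mrpl4 are named here after their values were seen. The smallest p belonged to Mrps18b, which had 63.2, 64.1 and 66.9 CPM in IL27_scr and 59.5, 62.7 and 58.2 in plasmid control, 0.11 ± 0.06 higher on the log2 scale with an adjusted p of 0.999 by edgeR. The largest negative value was that of Mrpl55, at -0.14 ± 0.11, and that of Mrpl23, an exit tunnel protein, was -0.13 ± 0.11.

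The members moved together from library to library, and most of the difference came from 2 of the 3 IL27_pepL libraries. Relative to the plasmid control mean, the median of the 77 genes on the log2 scale was -0.02 in IL27_pepL replicate 1, 0.16 in replicate 2 and 0.30 in replicate 3. The same median was -0.05, 0.04 and 0.03 in the IL27_scr libraries and -0.0096, -0.004 and 0.0035 in the plasmid control libraries. Replicate 1 of IL27_pepL thus lay within the range of the other 2 groups, with 30 of 77 genes above the plasmid control mean, and replicates 2 and 3 lay outside it, with 70 and 74. Replicate 3 of IL27_pepL was the highest of the 9 libraries for 69 of the 77 genes, against 27.7% of all genes, and replicate 1 of the same group was the lowest for 20, against 13.0% of all genes. The library that was lowest for the most members, 25, was IL27_scr replicate 1, against 11.3% of all genes. Between IL27_pepL replicates 1 and 3 all 77 genes were higher in replicate 3, with a median of 0.31 on the log2 scale. The differences ran from 0.01 (Mrpl39, a large subunit protein) to 0.81 (Mrps24). The members' share of all counts was 0.380%, 0.421% and 0.463% in IL27_pepL, 0.380%, 0.402% and 0.399% in IL27_scr, and 0.384%, 0.387% and 0.386% in plasmid control.

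**Figure D3:**
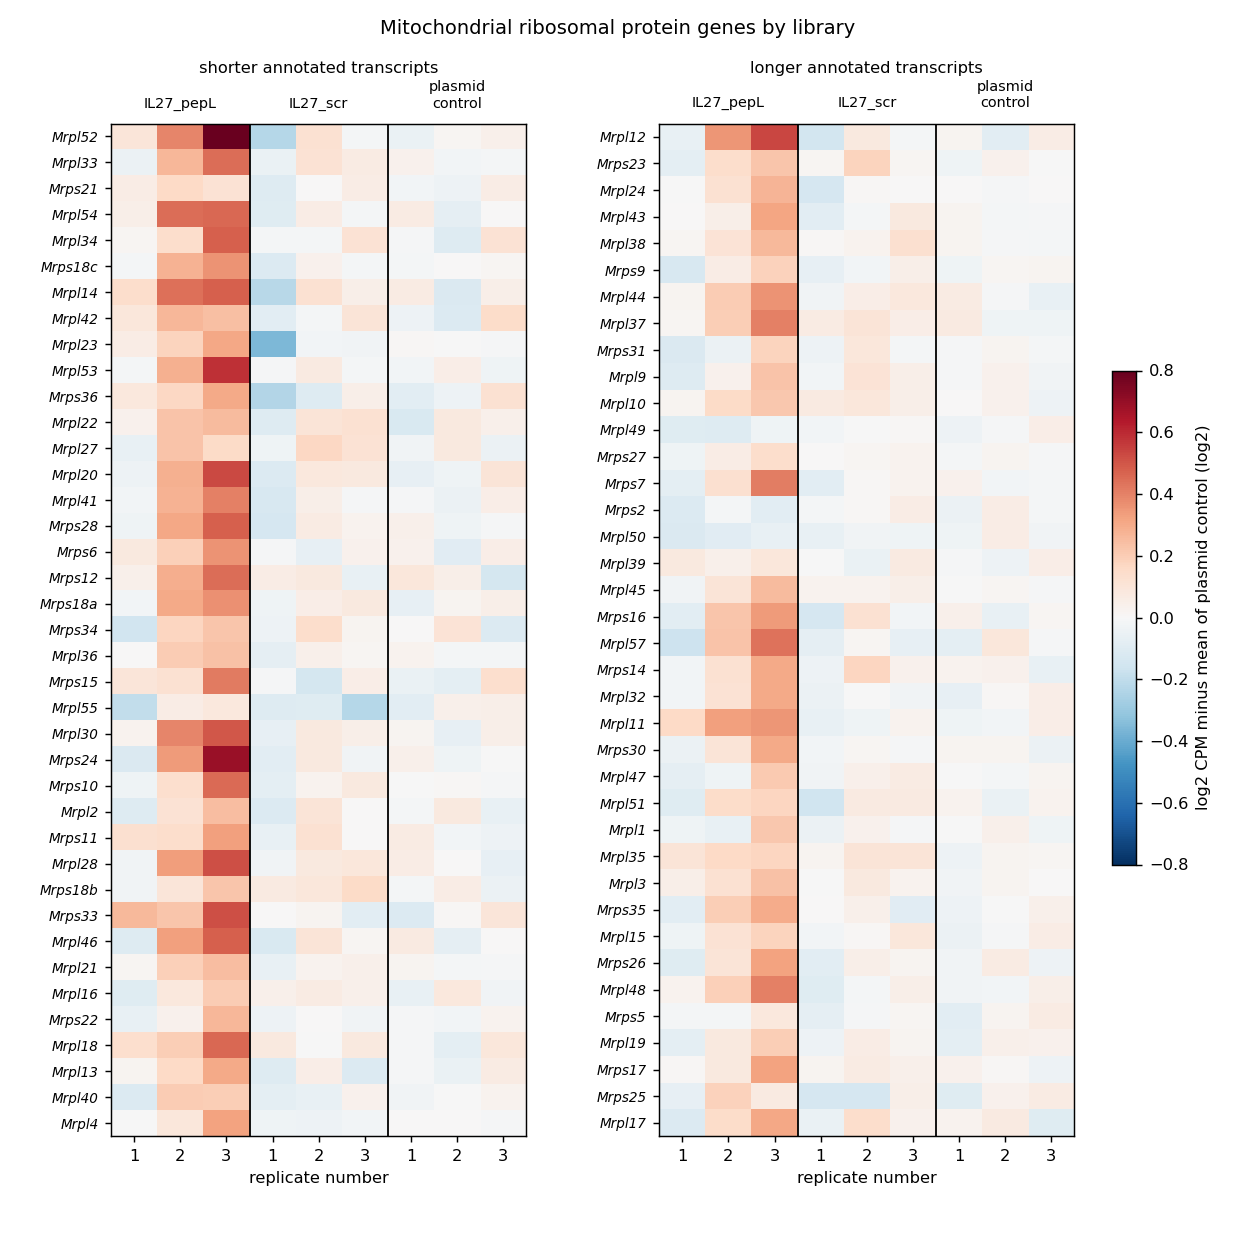
Log2 CPM of each gene minus its plasmid control mean, as colour, in the 9 libraries, with genes ordered from the shortest to the longest annotated transcript. The colour is strongest in IL27_pepL replicate 3 (Mrpl52 at 0.79) and paler towards longer transcripts, and IL27_pepL replicate 1 resembles the IL27_scr and plasmid control columns for most genes.

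The same libraries stood out for 2 other families of short transcripts. The 80 cytosolic ribosomal protein genes had medians of 0.03, 0.30 and 0.46 in IL27_pepL replicates 1, 2 and 3 on the log2 scale relative to plasmid control, and the 76 nuclear genes of oxidative phosphorylation 0.02, 0.25 and 0.31. In IL27_pepL against plasmid control the median of the mitochondrial ribosomal protein genes was 0.14, beside 0.27 for the cytosolic ribosomal protein genes and 0.20 for the oxidative phosphorylation genes. With the length and GC offset these medians were 0.06, 0.11 and 0.05. In the 2 other families 67 of 80 and 51 of 76 genes were higher at an unadjusted p under 0.05, against 11.2% of all genes. Of either family 0 passed the adjusted test, beside 0.429% of all genes called higher. Against IL27_scr 1 cytosolic ribosomal protein gene and 2 oxidative phosphorylation genes passed, all higher, beside 1.09% of all genes called higher. Across all genes the log2 difference from plasmid control also sloped with transcript length, by -0.01, -0.08 and -0.15 per doubling of length in IL27_pepL replicates 1, 2 and 3, by 0.03, -0.03 and -0.03 in IL27_scr and by between -0.01 and 0.01 in plasmid control. The libraries with the steepest slope were those with the highest medians of the members.

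**Figure D4:**
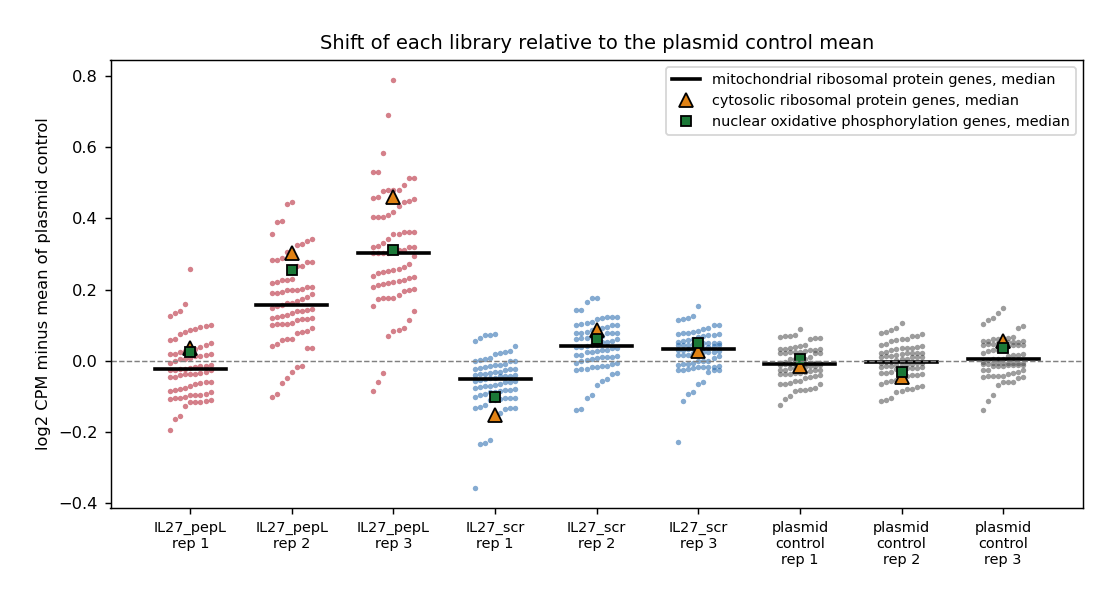
Log2 CPM minus the plasmid control mean for each of the 77 genes (dots), with their median (bar) and the medians of the cytosolic ribosomal protein genes (triangles) and of the nuclear oxidative phosphorylation genes (squares), per library. The medians of the mitochondrial ribosomal protein genes are -0.02, 0.16 and 0.30 in IL27_pepL replicates 1, 2 and 3 and lie between -0.05 and 0.04 in the other libraries.

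The principal transcripts of the members are short, with a median of 1288 nt against 3027 nt for all genes, and the cytosolic ribosomal protein genes (886.5 nt) and the oxidative phosphorylation genes (870.0 nt) are shorter still. Within the members the shorter genes had the larger fold changes in IL27_pepL against plasmid control. The 26 shortest (418 to 1018 nt) had a median of 0.22 on the log2 scale, 18 of them higher at an unadjusted p under 0.05. The 25 of middle length (1031 to 1764 nt) had 0.13 with 11, and the 26 longest (1849 to 7300 nt) 0.12 with 4. Of all genes 11.2% were higher at that cutoff. Across the 77 genes the fold change and the log of the length had a Pearson r of -0.47 and a Spearman rho of -0.53, as a description over genes that come from the same 6 libraries. In IL27_scr against plasmid control the same rho was 0.08.
When each library was given an offset that follows transcript length and GC content, the median of the members was 0.06 in IL27_pepL against plasmid control, against 0.14 without it, and 0.09 in IL27_pepL against IL27_scr, against 0.15. The number at an unadjusted p under 0.05 against plasmid control was then 18, against 33, and 56 of the 77 were above 0, against 73. The matching shares of all genes, 11.2% and 50.6%, are given here only for the fit without the offset. With it the median of all genes was 0.0024. Per library, the medians with the offset were -0.03, 0.08 and 0.13 in IL27_pepL replicates 1, 2 and 3, so replicate 3 was again the highest of them, at a smaller size. With the offset the 26 longest genes had the highest median, 0.16, and the 26 shortest 0.06. With the median length of coding transcripts in place of the principal transcript the members' median was 0.11 against plasmid control and 0.12 against IL27_scr. Mrpl11, with a principal transcript of 3045 nt, had the highest fold change of the 26 longest genes, and with the offset it was 0.31 on the log2 scale with an edgeR adjusted p of 0.0165. Its coding transcripts run from 363 to 3045 nt in the annotation, and with their median length, 663 nt, the values were 0.19 and an edgeR adjusted p of 0.0550 against plasmid control, and 0.21 and 0.0234 against IL27_scr.

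**Figure D5:**
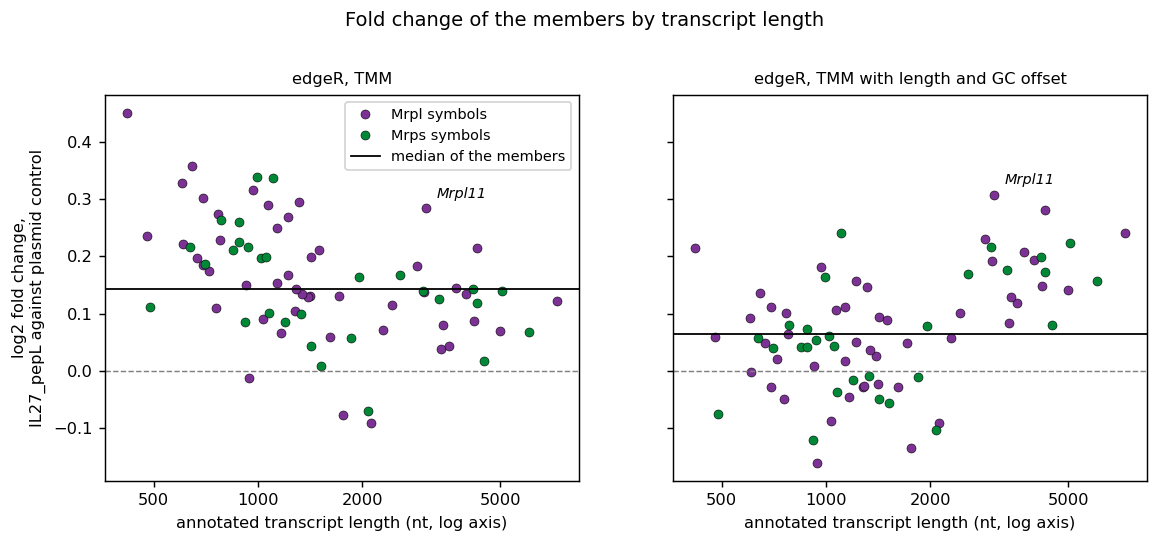
Log2 fold change of each of the 77 genes in IL27_pepL against plasmid control by principal transcript length in nt (log axis), without (left) and with (right) the offset of each library for length and GC content; the solid line is the members' median. Without the offset the values fall with length and the median is 0.14; with it the median is 0.06 and the longest genes are the highest.

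Genes that act with the mitoribosome did not all share the members' position. Of the mitoribosome proteins that go by other symbols 6 were measured: Dap3, Ptcd3, Chchd1, Aurkaip1, Gadd45gip1 and Ict1. Their median log2 fold change in IL27_pepL against plasmid control was 0.22, all 6 above 0, 5 at an unadjusted p under 0.05 and 0 past the adjusted test. Over all genes 50.6% were above 0 and 11.2% were higher at an unadjusted p under 0.05. Gadd45gip1, a large subunit protein, had 89.0, 112 and 138 CPM in IL27_pepL, 83.0, 94.3 and 91.4 in IL27_scr, and 86.1, 88.3 and 91.7 in plasmid control. It was highest in IL27_pepL replicate 3, as most members were. Its log2 fold change was 0.35 ± 0.11 (adjusted p of 0.110 by edgeR). Ptcd3, a small subunit protein, had a log2 fold change of 0.01 ± 0.04.
The 24 measured genes of mitoribosome assembly and ribosomal RNA modification had a median of -0.01, with 11 above 0, and the 18 measured translation factors 0.01, with 9 above 0. The 12 measured genes of mitochondrial DNA transcription and maintenance had a median of 0.01. None of these 3 lists had a gene past the test in any comparison. Mpv17l2, an assembly factor of the large subunit, had the smallest adjusted p among them against plasmid control, 0.0713 by edgeR, at 0.25 ± 0.07.
Of 17 mitochondrial aminoacyl-tRNA synthetases, which charge the transfer RNAs, 1 fell and 0 rose in each comparison with IL27_pepL. Over all genes 1.2% were called lower against plasmid control and 1.44% against IL27_scr. Lars2, for leucine, had the largest change of the list against plasmid control but did not pass the test. It had 148, 203 and 191 CPM in IL27_pepL, 142, 162 and 205 in IL27_scr, and 324, 234 and 258 in plasmid control, far apart within each group. Its log2 fold change against plasmid control was -0.59 ± 0.14 in IL27_pepL (adjusted p of 0.0573 by edgeR) and -0.68 ± 0.14 in IL27_scr (adjusted p of 0.798 by edgeR). Whether all reads counted for Lars2 came from its messenger RNA was not tested. Mars2, for methionine, had 11.2, 12.5 and 13.0 CPM in IL27_pepL, 16.4, 17.2 and 17.2 in IL27_scr, and 16.0, 15.6 and 15.2 in plasmid control. All 3 IL27_pepL libraries lay below the others, with log2 fold changes of -0.35 ± 0.07 against plasmid control (adjusted p of 0.0334 by edgeR) and -0.47 ± 0.07 against IL27_scr (adjusted p of 0.00593 by edgeR). Of 9 transcription factors and coactivators of nuclear mitochondrial genes, Myc fell against IL27_scr, at 195, 207 and 222 CPM in IL27_pepL and 242, 256 and 248 in IL27_scr (log2 fold change -0.26 ± 0.06, adjusted p of 0.0491 by edgeR), and against plasmid control it had an adjusted p of 0.0619. Nrf1, the factor of the first motif, had a log2 fold change of -0.01 ± 0.05 in IL27_pepL against plasmid control. No transcript of mitochondrial DNA was listed in the table, so the messages that the mitoribosome translates were not analysed here.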

How the data were processed

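The authors deposited 1 table of raw counts of reads for 12125 genes in 9 libraries. Per the submitters' processing notes the tools were FastQC, STAR (1.5.1 is printed beside it), featureCounts, Subread 1.6.1 and edgeR 3.22.5, with build mm10; roles, order, strand setting, RNA selection and annotation were not given in the sources used here. Annotated exons of 19 members overlap another gene of the table, whose reads cannot be told apart from theirs without the strand setting.

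The counts entered edgeR 4.0.16 (R 4.3.3) in 1 fit over all 9 libraries with group as the only term, TMM normalization, the quasi-likelihood test and Benjamini-Hochberg adjustment over all genes, called at an adjusted p under 0.05. No gene was lost to the filter filterByExpr (0 removed). The common coefficient that edgeR names biological variation was 5.76%. It measures the spread between these libraries, which may be technical. Lengths and GC content came from GENCODE for mm10 (principal transcript), known for 99.5% of genes. The procedure was tested on simulated data. The offset for length and GC content used natural splines with 4 degrees of freedom each. Alternatives were DESeq2 1.42.0, limma-voom (limma 3.58.1), other filters and size factors, fewer groups in the fit, replicate number as a term and each library left out; 2 forms of the offset were added after seeing the data. Within groups log2 CPM correlated across genes with r from 0.993 to 0.997.

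The members, gene lists and tests were chosen with earlier results of these data known. Named were members past the test, those with the 5 smallest p, the 5 largest and smallest fold changes, extremes of level and spread, and 2 of each structural list, with the values of single stalk genes added. One item of the cell line's make-up and of the epithelial marker list is not reported here.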

Additional observations from a re-analysis of the deposited data

How the results depend on the processing

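The number of mitochondrial ribosomal protein genes past the test in IL27_pepL against plasmid control was 1 and became 6 with DESeq2's Wald test, 0 with only the compared groups in the fit, 0 with the offset on median coding length, and 0 to 48 over the fits that leave out each library, 48 being that without IL27_pepL replicate 1. In IL27_pepL against IL27_scr it was 1 and became 7 with DESeq2, 0 with only the compared groups, and 0 to 42 over the fits that leave out each library. Over all genes the number against plasmid control was 197. It became 48 with only the compared groups, 201 with the offset on median coding length and 36 to 2084 over the fits that leave out each library. Against IL27_scr it was 306, and became 165 with only the compared groups and 69 to 1782 over the fits that leave out each library. The cause of these changes was not tested. The members' medians were 0.08 to 0.22 against plasmid control and 0.08 to 0.23 against IL27_scr over the fits that leave out each library. With the length and GC offset and without IL27_pepL replicate 3 they were 0.0352 and 0.0344. In IL27_scr against plasmid control the count of members was 0 in every fit that was run and their median lay between -0.01 and 0.03.

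Replicate number as a block gave 9 calls among the members against plasmid control (1019 over all genes, against 197 without it) and 11 against IL27_scr (1110 over all genes, against 306). Deviations of libraries of the same number from their group means had correlations across genes of 0.0491, 0.161 and -0.0599 between IL27_pepL and plasmid control, 0.318, 0.109 and 0.0967 between IL27_pepL and IL27_scr, and 0.0886, 0.208 and 0.0717 between IL27_scr and plasmid control. They were above 0 in 8 of 9 pairs, against 5 of 18 pairs of unlike number, a hint from the data and not from the design. Not every pair exceeded 0.1 in any of the 3 comparisons and not every library correlated best with its own number, so the numbers were not taken to pair the samples. Over the named genes and single alternatives 2026 values kept their side of the threshold, 68 were newly past it and 15 were no longer past it. The sign differed from the fit as reported in 100 values: 18 in IL27_pepL against plasmid control, 30 in IL27_pepL against IL27_scr and 52 in IL27_scr against plasmid control, and 0 of them passed the test in either fit. In IL27_pepL against plasmid control, Mrps18b and Mrpl23 became -0.04 and -0.03 with the length and GC offset, and Mrpl55 0.08 without IL27_pepL replicate 1. DESeq2 called 774 and 811 genes over the whole table in the 2 comparisons with IL27_pepL.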
